A study of Homo sapiens with 6 samples.

Results

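The genes described here encode solute carriers, ion channels, ion pumps and related membrane transporters. They were chosen by symbol from a deposited table of 459 genes: those starting with SLC and a digit, SLCO, ABCA, ABCB, ABCC, ABCG, KCN, SCN, CACN, CLCN, CLCA, TRPM, TRPV, TRPC, AQP, ATP1, ATP2, P2RX, TMC and a digit, or CATSPER. This gave 19 of the 459 genes, 1 of which enters the counts below but is not described. The prefix ATP1 also takes in ATP10A, which moves phospholipids rather than ions. The cells are SK-OV-3, an established ovarian cancer cell line given as wild type in the labels. The control libraries (control 1, 2 and 3) come from cells in medium without fulvic acid (FA), a soluble fraction of humic matter. The FA libraries (FA 1, 2 and 3) come from cells given FA at 100 µg/ml for 48 h. Polyadenylated RNA was sequenced in all 6 libraries, and the comparison asks which genes differ with FA. All libraries come from this single cell line. The control medium is described only as lacking FA, so whether a vehicle was added is not given in the sources used here, and the labels do not say whether replicates were grown as separate cultures.

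Every gene of the table had passed the authors' limits on the log2 fold change, of about 1 in either direction, and on the false discovery rate (FDR, an adjusted p-value), of about 0.01. Each of the 19 genes therefore had to differ between the groups, and that they do is no finding. What can be described is their direction, size, level, spread and position. In GENCODE release 29, 667 protein-coding genes have symbols that fit the rule. Those outside the table, among them every gene of the ABC transporter, CACN, CLCN, CLCA, TRP, AQP, ATP1A, ATP1B and P2RX families, were not analysed here, and their absence says nothing of their expression.

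Solute carriers move nutrients, metabolites and inorganic ions across the plasma membrane or the membranes of organelles, using gradients of other solutes. Ion channels let potassium, sodium, calcium or chloride ions pass down their gradients, and ATP-driven pumps maintain those gradients. In epithelial and cancer cells such proteins are known to set the membrane potential, cell volume, intracellular calcium and pH, and the supply of amino acids and vitamins.

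Promoter windows of 300 bases, from 250 before to 50 after a transcription start, were given by RefSeq (GRCh38.p14) for 13 of the 19 genes, in 27 windows. The windows of the 3 higher genes with an entry are shown, with that of ATP10A as a lower gene. Capitals mark GCGTG or its reverse complement, the core letters of the response element of the aryl hydrocarbon receptor, a receptor known to control CYP1A1, the gene in the study's title. All windows below lie on the minus strand and read 5′ to 3′ along the gene. They are SLC25A29 at chr14:100306395-100306694, KCNH2 at chr7:150974992-150975291 (the one of its 5 windows with most matches), TMC4 at chr19:54173111-54173410 and ATP10A at chr15:25863278-25863577.
SLC25A29: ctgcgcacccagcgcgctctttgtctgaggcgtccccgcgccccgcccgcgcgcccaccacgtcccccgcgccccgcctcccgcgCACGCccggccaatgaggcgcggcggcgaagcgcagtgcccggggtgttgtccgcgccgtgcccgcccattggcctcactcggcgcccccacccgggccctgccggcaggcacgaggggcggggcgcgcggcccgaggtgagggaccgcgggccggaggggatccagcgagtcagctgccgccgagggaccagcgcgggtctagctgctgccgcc
KCNH2: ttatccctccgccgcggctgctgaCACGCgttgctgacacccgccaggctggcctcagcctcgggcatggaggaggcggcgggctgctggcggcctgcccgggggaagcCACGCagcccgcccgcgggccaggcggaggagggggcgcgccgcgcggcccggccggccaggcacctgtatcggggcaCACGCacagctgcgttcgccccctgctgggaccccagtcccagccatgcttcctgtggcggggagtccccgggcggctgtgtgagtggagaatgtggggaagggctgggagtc
TMC4: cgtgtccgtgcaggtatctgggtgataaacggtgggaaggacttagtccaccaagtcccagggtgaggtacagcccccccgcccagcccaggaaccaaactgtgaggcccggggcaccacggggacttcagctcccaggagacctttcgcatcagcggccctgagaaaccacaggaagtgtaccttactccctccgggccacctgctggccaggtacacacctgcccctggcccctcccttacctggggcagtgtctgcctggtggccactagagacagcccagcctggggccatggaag
ATP10A: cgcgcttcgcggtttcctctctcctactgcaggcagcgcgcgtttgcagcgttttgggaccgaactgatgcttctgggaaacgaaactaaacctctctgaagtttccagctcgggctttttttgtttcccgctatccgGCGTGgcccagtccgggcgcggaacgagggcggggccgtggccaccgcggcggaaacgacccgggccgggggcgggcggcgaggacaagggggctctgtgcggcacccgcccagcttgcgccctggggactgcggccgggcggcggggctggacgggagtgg

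The SLC25A29 window holds 1 match, whose first base lies 165 bases before the start. The KCNH2 window holds 3, with first bases 226, 141 and 63 bases before the start, and the TMC4 window holds 0. The window of ATP10A, a lower gene, holds 1 match, 112 bases before the start. Over both strands, GCGTG occurred in 10 of the 27 windows, against 41.2% of the windows of all table genes and 36.5% of 35116 windows in RefSeq. Windows of a gene can overlap. Those of ATP2B2 at chr3:10505535-10505834 and chr3:10505537-10505836 nearly coincide and hold the same matches, and each is counted. By gene, 5 of 13 held it in at least 1 window (KCNH2 and SLC25A29 among the higher genes, ATP10A, ATP2B2 and SLC4A8 among the lower), against 51.9% of 293 table genes with an entry. Other searched letters were TGANTCA (AP-1), found in a window of KCNJ16 and in 11.9% of the 293 table genes, and GGAATG (TEAD), found in a window of SLCO2B1 and in 18.4%. TGATGCA, part of an element bound by ATF4, was found in 0 of the 13 genes and in 2.73% of the 293. No matches overlapped in these windows. A match describes letters only, and sequence of these genes outside the 27 windows was not searched.

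With FA, 4 of the 19 genes were higher and 15 lower in the authors' deposited table, 5 of the 15 (KCNN4, SLC7A7, SLC23A1, ATP10A and ATP2B2) with a change of sign in another scaling described below. Of all 459 genes 25.5% were higher and 74.5% lower, so the split of the 19 genes lay near the background. The higher genes were SLC25A29, a mitochondrial carrier of basic amino acids, the potassium channel gene KCNH2, the muscle sodium channel gene SCN4A and TMC4 of the transmembrane channel-like family. The lower genes included 5 carriers of organic solutes, 4 potassium channel genes, and carriers or pumps of calcium, bicarbonate and phospholipid. In the authors' deposited table the median log2 fold change was -1.22 for the 19 genes and -1.22 over all 459, and SCN8A held the middle place in both. Scaling computed from the 459 listed genes alone, by TMM or DESeq2 size factors, centres the typical listed gene by construction. In the refit described below it raises the median log2 fold change of all genes by 1.24, from -1.28 to -0.034 and -0.042. Those 5 genes then changed sign, to values of at most 0.10 (edgeR adjusted p at least 0.748). How many of the 459 genes changed sign was not counted. The same scaling raised the 4 higher genes, with TMM from 0.96 to 2.21 for SCN4A and from 1.04 to 2.28 for SLC25A29. It also raised TMC4 from 1.61 to 2.85 and KCNH2 from 1.92 to 3.16. Each of the 19 genes moved by about the same amount. Which lower genes changed sign or still passed therefore largely restates the size of their change. By the same deposited values, 9 of the 19 genes changed by 1.5 or more on the log2 scale in either direction, against 37.5% of the 459 genes. A change of 2 or more was reached by 2 of the 19, against 18.3%, and an FDR under 1e-05 by 11 of the 19, against 66.9%.

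Levels below are FPKM as deposited, a fragment count scaled by gene length and library depth. Log2 fold changes with their standard error (SE) and adjusted p come from a refit of the counts of all 459 genes with edgeR's quasi-likelihood test and Benjamini-Hochberg adjustment. All 459 genes (100%) passed 0.05 in that refit, which uses the libraries that chose the table, so its p-values add no evidence. They set the size of a change against the spread between libraries, and are given as description only. With TMM over the listed genes 8 of the 19 passed, against 43.1% of the table, and with DESeq2 size factors 8 of the 19, against 44.2%. Control and FA ranges of FPKM were separate in all 19 genes, against 99.8% of table genes without overlap. The lowest value of the higher group was at least 1.36 times the highest value of the lower group, with a median of 2.23 for the 19 genes and 1.97 for the table. With TMM over the listed genes counts did not overlap in 10 of the 19, against 50.5% of the table, and with DESeq2 size factors in 10, against 51.2%. In a bulk sample, fewer cells expressing a gene and less RNA per cell cannot be told apart.

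The implied depth was 39900000 to 50900000 fragments per library. The 19 genes held 9055 to 17045 counts per library, and 76.1% of these counts came from SLC25A29. Of the markers fixed for ovarian epithelium, CDH1 of 11 was in the table, of those for fibroblasts COL1A1 of 5, and of those for leukocytes and endothelium 0 of 4 and 0 of 3. The table can therefore not check the cell type label.

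**Figure D1:**
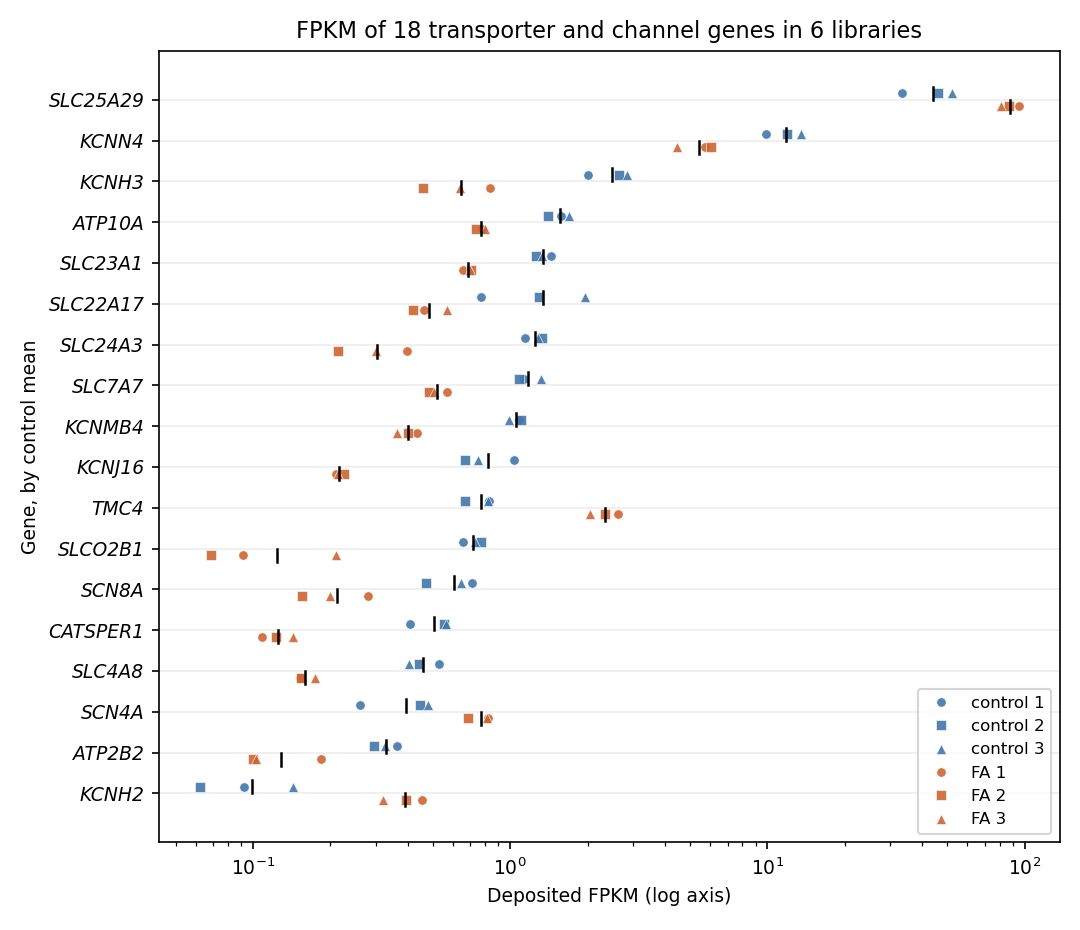
Deposited FPKM (log axis) of 18 of the 19 genes in each of the 3 control libraries (blue) and 3 FA libraries (orange), ordered by the control mean; black ticks are group means. FA values lie to the right for SLC25A29, TMC4, SCN4A and KCNH2 and to the left for the others shown, of which KCNN4, SLC7A7, SLC23A1, ATP10A and ATP2B2 changed sign with scaling computed from the listed genes alone.

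Most of these genes were weakly expressed. In FPKM, the control mean was below 2 for 16 of the 19 genes, against 46.4% of the table. SLC25A29 stood highest in control cells at 43.9 FPKM, followed by KCNN4 at 11.8 FPKM and KCNH3 at 2.49 FPKM, and the ranges of these did not overlap. From SLC23A1 down to SLC7A7, at 1.34 to 1.18 FPKM, the control ranges of neighbouring genes overlapped. With FA the order began with SLC25A29 at 87.6 FPKM, KCNN4 at 5.41 FPKM and TMC4 at 2.33 FPKM. SLC25A29 alone made up 61.3% of the summed FPKM of the 19 genes in control cells and 86.3% with FA. The summed FPKM of the 15 lower genes had a mean of 26.5 in control and 10.4 in FA libraries.

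Among the amino acid carriers the mitochondrial one was higher and the plasma membrane one lower, the latter with a change of sign under scaling from the listed genes alone. SLC25A29 (ENSG00000197119, chromosome 14, positions 100291111 to 100306547) carries arginine, lysine and other basic amino acids across the inner mitochondrial membrane. Its FPKM was 33.5, 46.2 and 52.1 in control 1, 2 and 3 and 95.0, 87.2 and 80.7 in FA 1, 2 and 3. The lowest FA library lay well above the highest control library. Its counts ran from 5280 to 14857, and its SE was the smallest of the 19 genes (log2 fold change 1.04, SE 0.14, adjusted p = 1.4e-05). Control 1 was at 0.767 times the mean of the other controls in depth-scaled counts. Without control 1 the log2 fold change was 0.92. Of its exonic bases 9.30% are shared with AL157871.1, a gene on the other strand, and whether counting was stranded is not given in the sources used here.

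SLC7A7 (ENSG00000155465, chromosome 14, positions 22773222 to 22829820) is the light chain of a plasma membrane exchanger that releases basic amino acids, loss of which causes lysinuric protein intolerance. It went from 1.13, 1.08 and 1.31 FPKM in control 1, 2 and 3 to 0.567, 0.484 and 0.507 FPKM in FA 1, 2 and 3. Control 3 was the highest of a tight control group. Its log2 fold change was -1.21 (SE 0.21, adjusted p = 0.00012). Within each library the FPKM of SLC25A29 was 29.5 to 42.9 times that of SLC7A7 in control cells and 159.3 to 180.3 times with FA, a ratio that no scaling between libraries touches. Since SLC25A29 was listed as higher and SLC7A7 as lower, the selection of the table fixed a rise of this ratio between the group means. Genes of the amino acid response under ATF4, a factor known to drive many amino acid carriers, were checked beside them. Of 25 such genes only ATF3 was in the table and rose, as did 25.5% of the table, from 33.4 ± 1.2 to 79.4 ± 3.4 FPKM (SD, n = 3 per group; edgeR adjusted p = 1.9e-06). A link between ATF4 and the changes of these carriers was not tested.

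Of the genes described, the carrier of organic anions showed the largest decrease. SLCO2B1 (ENSG00000137491, chromosome 11, positions 75100563 to 75206549) takes up steroid sulphates, statins and other organic anions. Its FPKM was 0.656, 0.768 and 0.730 in control 1, 2 and 3 and 0.0912, 0.0686 and 0.210 in FA 1, 2 and 3. FA 3 stood apart from the other FA libraries in FPKM, at 2.63 times their mean. In counts the same library was close to them: the FA libraries held 17, 14 and 25 counts, and relative to depth FA 3 was 1.33 times the mean of the others. The log2 fold change of the counts was -2.46 (SE 0.29, adjusted p = 6.3e-06).

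SLC22A17 (ENSG00000092096, chromosome 14, positions 23346306 to 23352912) belongs to the organic cation carrier family and is known as a receptor for LCN2, an iron-siderophore binding protein. It had 0.771, 1.29 and 1.96 FPKM in control 1, 2 and 3 and 0.463, 0.419 and 0.567 FPKM in FA 1, 2 and 3. Its control libraries were widely spread, and control 1 lay just above the FA libraries, at 1.36 times the highest of them. The log2 fold change was -1.42 (SE 0.32, adjusted p = 0.00080) with all libraries, -1.70 without control 1 and -0.16 (edgeR adjusted p = 0.76) with TMM over the listed genes. LCN2, named after its values were seen, rose in the same libraries from 335.7 ± 45.9 to 653.4 ± 27.8 FPKM (SD, n = 3 per group; edgeR adjusted p = 1.7e-05).

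SLC23A1 (ENSG00000170482, chromosome 5, positions 139367196 to 139384553) is a sodium-driven carrier of ascorbate, best known from kidney and intestine. Its level was 1.44, 1.26 and 1.33 FPKM in control 1, 2 and 3 and 0.657, 0.706 and 0.699 FPKM in FA 1, 2 and 3. The values within each group were close. Its log2 fold change of -1.14 (SE 0.20, adjusted p = 0.00015) was the smallest among the 15 lower genes and changed sign with scaling from the listed genes alone.

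**Figure D2:**
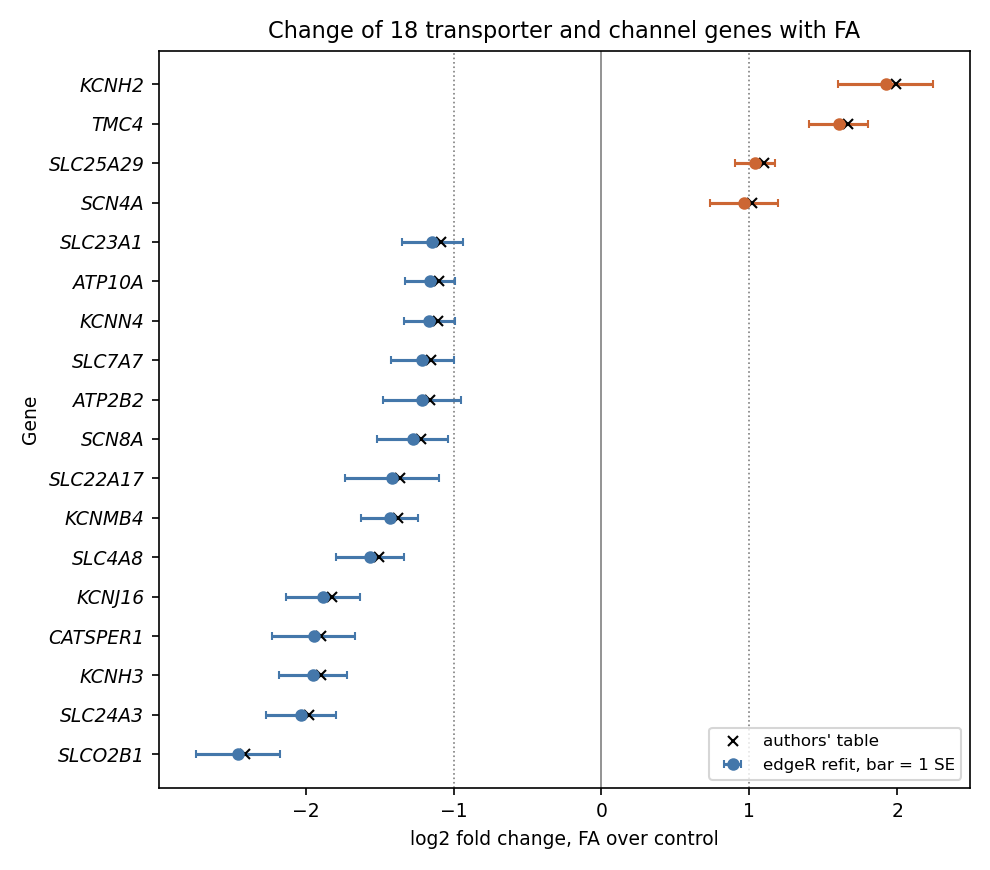
Log2 fold change of FA over control for 18 of the 19 genes: circles with bars are the edgeR refit ± 1 SE (3 libraries a group), crosses the authors' deposited table, dotted lines a change of 1 in either direction. The range runs from -2.46 for SLCO2B1 to 1.92 for KCNH2, and with scaling from the listed genes alone KCNN4, SLC7A7, SLC23A1, ATP10A and ATP2B2 changed sign.

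Of the 5 potassium channel genes in the table, KCNH2 was higher and 4 were lower, near the 74.5% of all 459 genes that were lower. KCNN4 was lower with a change of sign under scaling from the listed genes alone. KCNH2 (ENSG00000055118, chromosome 7, positions 150944961 to 150978315) encodes the pore of the hERG channel, which repolarises heart muscle and is found in many tumours. It was the weakest of the 19 genes in control cells, with 18, 13 and 30 counts in control 1, 2 and 3 and 78, 75 and 70 counts in FA 1, 2 and 3. Its FPKM was 0.0919, 0.0621 and 0.143 in control 1, 2 and 3 and 0.453, 0.394 and 0.319 in FA 1, 2 and 3. The groups did not overlap, the mean over 6 libraries was 47.3 counts, and the SE was the widest of the 19 genes. Its log2 fold change of 1.92 (SE 0.32, adjusted p = 8.7e-05) ranged from 1.66 without control 2 to 2.29 without control 3.

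KCNH3 (ENSG00000135519, chromosome 12, positions 49539157 to 49558308) encodes a related voltage-gated channel of the same KCNH family, known mainly from brain. It went the other way, from 2.00, 2.64 and 2.84 FPKM in control 1, 2 and 3 to 0.832, 0.458 and 0.639 FPKM in FA 1, 2 and 3. FA 1 was the highest FA library and still lay below the lowest control library. The log2 fold change of KCNH3 was -1.95 (SE 0.23, adjusted p = 7.2e-06), and -0.71 (edgeR adjusted p = 0.019) with TMM over the listed genes. Within each library the ratio of KCNH2 to KCNH3 in FPKM was 0.0460, 0.0235 and 0.0505 in control 1, 2 and 3. In FA 1, 2 and 3 it was 0.544, 0.859 and 0.499. KCNH3 thus remained above KCNH2 in every library, by a margin that was narrower in each FA library than in any control library. With KCNH2 listed as higher and KCNH3 as lower, a narrower margin between the group means was fixed by the selection of the table.

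Both genes of calcium-activated potassium channels were lower, as were 74.5% of the table, KCNN4 with the change of sign given above. KCNN4 (ENSG00000104783, chromosome 19, positions 43766533 to 43781261) encodes the intermediate-conductance channel, opened by calmodulin when calcium rises. It was the most abundant channel gene of the 19, at 9.87, 11.95 and 13.5 FPKM in control 1, 2 and 3 and 5.72, 6.03 and 4.47 FPKM in FA 1, 2 and 3. Control 1 was the lowest control library and lay above the highest FA library. Its log2 fold change was -1.16 (SE 0.17, adjusted p = 3.5e-05), which became 0.082 with TMM over the listed genes.

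KCNMB4 (ENSG00000135643, chromosome 12, positions 70366276 to 70434292) encodes an accessory subunit that slows the large-conductance channel and is best known from neurons. It fell from 1.08, 1.0996 and 0.986 FPKM in control 1, 2 and 3 to 0.434, 0.4003 and 0.362 FPKM in FA 1, 2 and 3. Both groups were tight (log2 fold change -1.43, SE 0.19, adjusted p = 1.8e-05), but the value with TMM over the listed genes was -0.20 (edgeR adjusted p = 0.48). KCNJ16 (ENSG00000153822, chromosome 17, positions 70053429 to 70135608) encodes an inward rectifier that joins KCNJ10 in kidney tubules and glia. Its values were 1.04, 0.669 and 0.747 FPKM in control 1, 2 and 3 and 0.210, 0.225 and 0.213 FPKM in FA 1, 2 and 3. Here control 1 was the highest control library, and the FA libraries were nearly equal (log2 fold change -1.88, SE 0.25, adjusted p = 1.5e-05). With TMM over the listed genes the value was -0.65 (edgeR adjusted p = 0.063).

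The sodium channel genes in the table also split. SCN4A (ENSG00000007314, chromosome 17, positions 63938554 to 63972918) encodes the pore of the skeletal muscle sodium channel. It rose from 0.261, 0.445 and 0.478 FPKM in control 1, 2 and 3 to 0.820, 0.684 and 0.810 FPKM in FA 1, 2 and 3. Control 1 lay far below the other controls, at 0.568 times their mean in depth-scaled counts. A log2 fold change of 0.96 (SE 0.23, adjusted p = 0.0013) was the smallest of the 19 genes and became 0.74 (adjusted p = 0.0017) without control 1.

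SCN8A (ENSG00000196876, chromosome 12, positions 51590266 to 51812864) encodes a sodium channel pore found in neurons. It fell from 0.709, 0.470 and 0.643 FPKM in control 1, 2 and 3 to 0.280, 0.154 and 0.200 FPKM in FA 1, 2 and 3. Control 1 was the highest control library here, the reverse of its place in SCN4A. The log2 fold change was -1.28 (SE 0.24, adjusted p = 0.00021), and -0.046 (edgeR adjusted p = 0.92) with TMM over the listed genes. Within each library the ratio of SCN4A to SCN8A in FPKM was 0.368, 0.948 and 0.744 in control 1, 2 and 3 and 2.93, 4.43 and 4.06 in FA 1, 2 and 3. In counts, which ignore gene length, it was 0.288, 0.644 and 0.711 and then 1.98, 2.99 and 2.73. The gene with the higher level was therefore SCN8A in every control library and SCN4A in every FA library, all at levels below 1 FPKM. A rise of the ratio between the group means was again fixed by the selection, as SCN4A was listed as higher and SCN8A as lower.

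**Figure D3:**
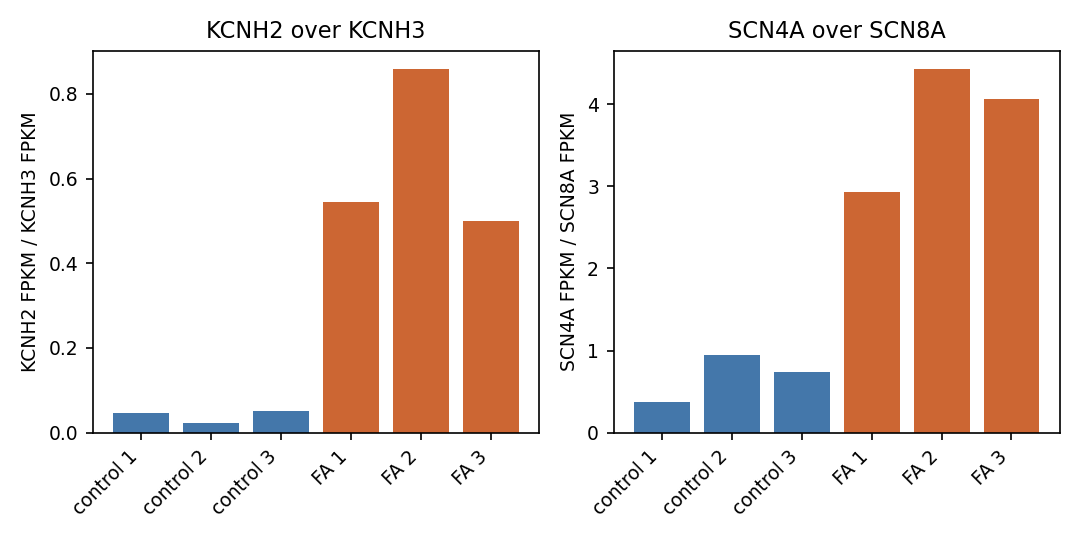
Ratio of FPKM within each library for both pairs of related channel genes, KCNH2 over KCNH3 (left) and SCN4A over SCN8A (right); each bar is 1 library, control in blue and FA in orange. The left ratio lies between 0.0235 and 0.0505 in control and 0.499 and 0.859 in FA libraries, the right one between 0.368 and 0.948 in control and 2.93 and 4.43 in FA libraries. Each pair sets a gene listed as higher over a gene listed as lower, so the selection of the table fixed a rise with FA.

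TMC4 (ENSG00000167608, chromosome 19, positions 54160108 to 54173250) belongs to the transmembrane channel-like family and is reported in mouse as a chloride channel of taste tissue. It read 0.827, 0.669 and 0.818 FPKM in control 1, 2 and 3 and 2.62, 2.34 and 2.04 FPKM in FA 1, 2 and 3. The lowest FA library held 2.46 times the highest control value. Its log2 fold change was 1.61 (SE 0.20, adjusted p = 9.0e-06), and none of its exonic bases is shared with another annotated gene. Its rank by fold change among the 117 higher genes of the table was 33, behind KCNH2 at 18 and ahead of SLC25A29 at 93 and SCN4A at 112.

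The genes of calcium transport in the table were lower, as were 74.5% of all 459 genes. ATP2B2 was lower with a change of sign under scaling from the listed genes alone. SLC24A3 (ENSG00000185052, chromosome 20, positions 19212646 to 19722937) encodes an exchanger that removes calcium from the cell together with potassium in return for sodium. It fell from 1.14, 1.32 and 1.28 FPKM in control 1, 2 and 3 to 0.398, 0.213 and 0.301 FPKM in FA 1, 2 and 3. All FA libraries lay far below the controls (log2 fold change -2.03, SE 0.24, adjusted p = 6.8e-06). Like KCNH3 and SLCO2B1, it was among the 4 lower genes that still passed 0.05 with TMM over the listed genes, where 17.6% of the table was called lower.

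ATP2B2 (ENSG00000157087, chromosome 3, positions 10324023 to 10708007) encodes a plasma membrane calcium pump known for its part in hearing. Its level was 0.364, 0.296 and 0.326 FPKM in control 1, 2 and 3 and 0.184, 0.0997 and 0.103 FPKM in FA 1, 2 and 3. FA 1 was the highest FA library. A log2 fold change of -1.21 (SE 0.26, adjusted p = 0.00065) reached -1.54 without FA 1. CATSPER1 (ENSG00000175294, chromosome 11, positions 66016752 to 66026517), a pore subunit of the calcium channel of sperm, had 47, 71 and 70 counts in control 1, 2 and 3 and 12, 15 and 20 counts in FA 1, 2 and 3. It is the other member with a mean below 50 counts, and all FA libraries were below all controls (log2 fold change -1.95, SE 0.28, adjusted p = 2.9e-05). With TMM over the listed genes the value was -0.70 (edgeR adjusted p = 0.064).

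SLC4A8 (ENSG00000050438, chromosome 12, positions 51391317 to 51515763) exchanges sodium and bicarbonate for chloride and raises intracellular pH. It fell from 0.530, 0.441 and 0.404 FPKM in control 1, 2 and 3 to 0.152, 0.153 and 0.173 FPKM in FA 1, 2 and 3. Control 1 was the highest control, and the FA libraries were close in FPKM but not in counts, where they held 58, 65 and 105 and FA 3 was 1.42 times the mean of the others relative to depth. The log2 fold change of the counts was -1.56 (SE 0.23, adjusted p = 3.2e-05), and -0.32 (edgeR adjusted p = 0.35) with TMM over the listed genes. ATP10A (ENSG00000206190, chromosome 15, positions 25677273 to 25865172) is a flippase that turns phosphatidylcholine to the inner leaflet of the membrane. Its values were 1.57, 1.404 and 1.69 FPKM in control 1, 2 and 3 and 0.777, 0.735 and 0.8001 FPKM in FA 1, 2 and 3. Both groups were tight, and its log2 fold change was -1.16 (SE 0.17, adjusted p = 2.9e-05), with a change of sign under scaling from the listed genes alone.

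Further lists of transport genes held few genes of the table; what share of all genes reached the table is not known here. A list of 272 protein-coding genes of other channels, gap junctions, pumps and carriers had GABRD and ATP10A, itself 1 of the 19, in the table, both lower, as were 74.5% of the table, ATP10A with the change of sign given above. GABRD, a subunit of GABA receptors, fell from 0.999 ± 0.15 to 0.267 ± 0.068 FPKM (SD, n = 3 per group; edgeR adjusted p = 2.7e-05). A list of 50 regulators of transport had CAV1 and NKAIN4, and both were lower, again as were 74.5% of the table. CAV1, the coat protein of caveolae, fell from 126.8 ± 16.5 to 44.7 ± 3.1 FPKM, and NKAIN4, a partner of the sodium pump, from 3.49 ± 0.73 to 0.291 ± 0.077 FPKM (SD, n = 3 per group; edgeR adjusted p = 9.3e-07 and 4.8e-07).

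Some of the 19 genes lay near other genes of the table. For 6 of the 19 (31.6%) the nearest listed gene was within 200 kb, against 21.3% of the 399 annotated table genes. In 5 of the 6 both neighbours changed in the same direction, against 83.5% of the 85 annotated genes with such a neighbour. KCNH2 lay 12.7 kb from NOS3, the endothelial nitric oxide synthase gene, and both were higher. SLC4A8 and SCN8A lay 74.5 kb from each other and both were lower. Each is the nearest listed gene of the other, so this pair enters the 6 and the 5 once for each gene. The shares of the table also count genes rather than pairs. The share with the same direction lay near that of the table, and neighbours were named after their values were seen.

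For some genes FPKM and counts gave different pictures of single libraries. Counts divided by FPKM and depth give the gene length that the authors' FPKM implies, which would be constant if 1 length had been used per gene. It varied by less than 1.1 times between the 6 libraries in 10 of the 19 genes, by more than 1.2 times in 6, and by more than 1.5 times in SLCO2B1. For SLCO2B1 it was 2738, 3573 and 3119 bases in control 1, 2 and 3 and 4672, 4570 and 2335 bases in FA 1, 2 and 3. The low value of FA 3 is the counterpart of its high FPKM. For SCN8A it was 10033, 11507 and 8171 bases in control 1, 2 and 3 and 11566, 11599 and 11618 bases in FA 1, 2 and 3, and the decrease was 2.87-fold in FPKM but 2.42-fold in depth-scaled counts. SLCO2B1 has 19 annotated transcripts and SCN8A has 15. Which transcripts were present was not tested.

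**Figure D4:**
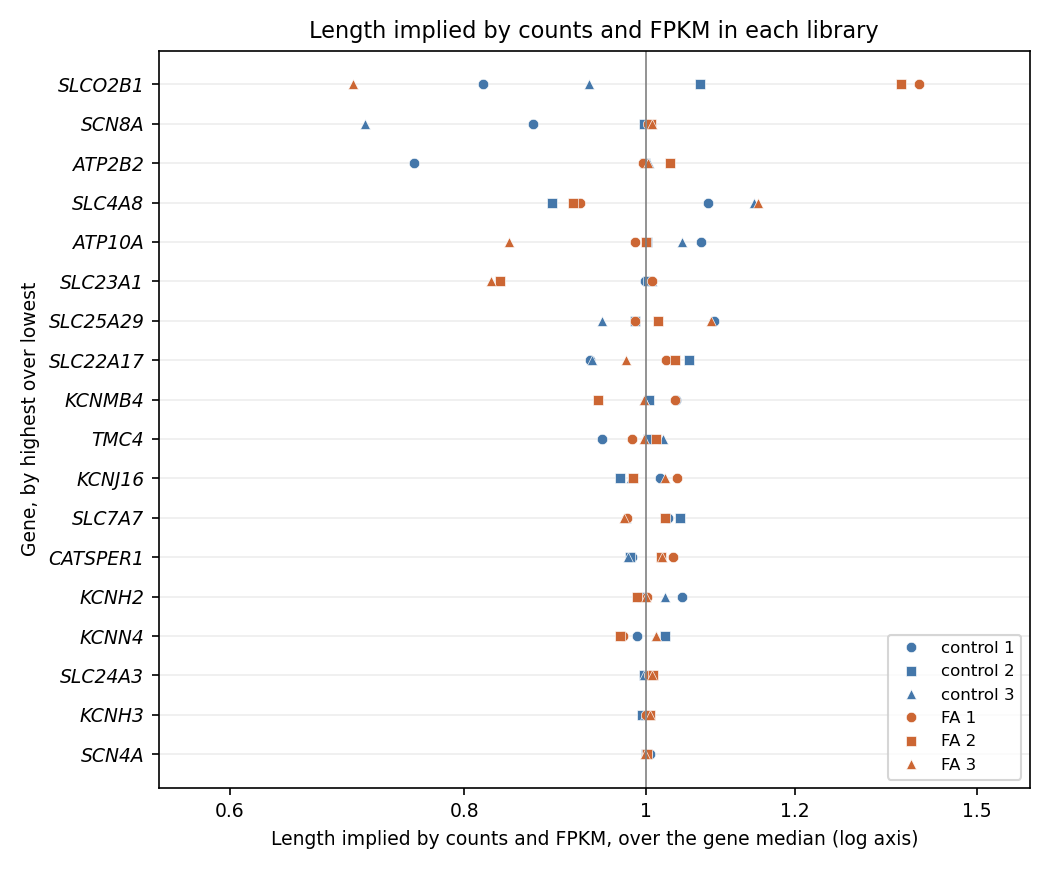
Gene length implied by counts and FPKM in each library, divided by the median of the gene's 6 libraries (log axis), for 18 of the 19 genes ordered by highest over lowest; control in blue, FA in orange. SLCO2B1 spans 2.00 times between its lowest and highest library, while SCN4A, KCNH3 and SLC24A3 each span 1.01 times.

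Control 1 differed from the other controls, and the difference went with GC content. Its depth-scaled counts over the mean of control 2 and 3 ranged from 0.451 in SLC22A17 (GC content of the annotated transcripts 62.7%) to 1.53 in KCNJ16 (40.4%). Across the 19 genes Spearman's rho with GC content was -0.64, and across the 399 annotated table genes it was -0.70. These are descriptions across genes that share the same libraries. Control 1 was the lowest control in 10 of the 19 genes, against 44.7% of the table. Without control 1 all 19 genes kept their direction and passed 0.05 in the edgeR refit. All 459 genes of the table, which was selected with these libraries, passed there too, 117 higher and 342 lower.

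**Figure D5:**
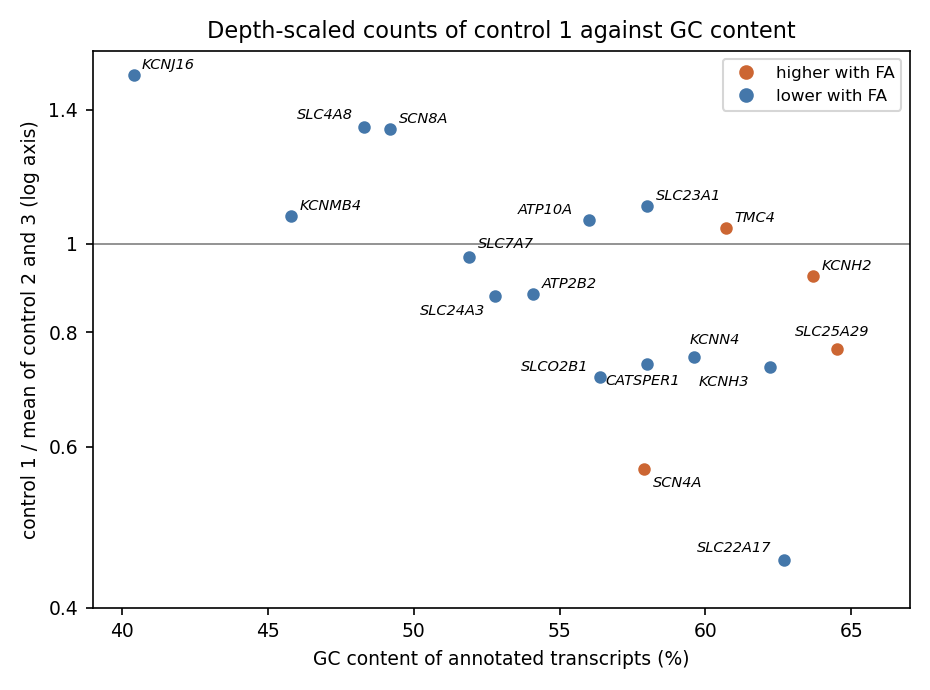
Depth-scaled counts of control 1 over the mean of control 2 and control 3 (log axis) against the mean GC content of each gene's annotated transcripts; each point is 1 of 18 of the 19 genes, orange for higher and blue for lower with FA in the authors' table. Values tend to fall with GC content, with KCNJ16 (40.4%) at 1.53 and SLC22A17 (62.7%) at 0.451; KCNN4, SLC7A7, SLC23A1, ATP10A and ATP2B2 changed sign with scaling from the listed genes alone.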

How the data were processed

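The labels give 3 control and 3 FA libraries of SK-OV-3 (groups and replicate numbers from the titles). RNA came from a Trizol extraction, with capture on oligo(dT) beads and PCR, per the labels' protocols. The authors' deposited table of 459 genes holds raw counts, FPKM values, an FDR (adjusted p-value) and a log2 fold change, per the file headers. GRCh38 is the build, per the submitters' processing notes; the sources used here do not name an aligner, a counter or a test. Direction comes from the authors' deposited log2 fold change, since the table is a selection from which that test cannot be repeated. A refit used the counts of all 459 genes in edgeR 4.0.16 under R 4.3.3 (quasi-likelihood test, group as the only term, Benjamini-Hochberg, threshold 0.05), and a standard error is the absolute log2 fold change over the square root of F. Library sizes were recovered from counts over FPKM in 180 genes with at least 200 counts, their scale from 16 single-transcript genes. The refit was tested on simulated data. Since separate cultures are not stated, the spread on which SEs and p-values rest may be technical. Coordinates, transcripts and exon overlap are from GENCODE release 29. Among the 19 genes shared exonic bases reached at most 9.30%. All members but 1, which is not reported here, are named, and those with a mean of at least 50 counts or among the largest changes get every library's value. Members and lists were chosen with earlier results of these data known. Alternatives were other scalings, DESeq2 1.42.0, limma 3.58.1 on log2(FPKM + 0.1) or log2(FPKM + 1), a count filter, a replicate block and leaving out each library.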

Additional observations from a re-analysis of the deposited data

How the results depend on the processing

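All 19 genes kept their direction and passed 0.05 in the refit with column totals, the authors' library factors and DESeq2's Wald test. They also did so with limma on log2(FPKM + 0.1) or log2(FPKM + 1), and without each library in turn (6 fits, adjusted p at most 0.0075). These settings called all 459 genes of the table, or 458 with either limma setting, so passing does not set the 19 genes apart. With a mean of at least 50 counts, 17 genes were left and passed, as did all 418 genes of the table then left. Whether same-numbered libraries are paired is not given in the sources used here. Their deviations from the group means correlated at 0.017, 0.092 and -0.17, and control 1 correlated best with FA 3. With so few libraries, all used to select these genes, such correlations cannot settle it. With the replicate block, 4 genes were higher and 15 lower as before, with adjusted p at most 5.3e-05, and all 459 genes of the table passed. By the authors' deposited values, raising the limit on absolute log2 fold change to 1.5 left 2 higher and 7 lower genes, a limit of 2 left 0 and 2, and an FDR under 1e-05 left 2 and 9. Scaling from the listed genes alone centres the typical listed gene by construction: with TMM and with DESeq2 size factors 4 lower genes passed, 10 of 19 genes had no overlap (50.5% and 51.2% of the table), and the median log2 fold change of the 19, -1.28, became -0.046 and -0.055. Column totals gave -1.05 and limma on log2(FPKM + 1), which shrinks low genes, -0.52. Log2 fold changes that reversed were, with TMM and DESeq2 size factors, 0.031 and 0.023 for SLC7A7, 0.10 and 0.089 for SLC23A1, 0.082 and 0.074 for KCNN4, 0.085 and 0.077 for ATP10A, and 0.022 and 0.012 for ATP2B2. CATSPER1, SLC4A8, KCNMB4, SCN8A, KCNJ16 and SLC22A17 stayed lower but no longer passed. The 4 higher genes passed in both of these settings, with larger log2 fold changes than in the refit. Depth was lowest for KCNH2 and CATSPER1, each with a mean below 50 counts.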
